A study of Mus musculus with 2 samples.

Results

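Collagens and laminins are the proteins of the extracellular matrix, and their RNA was followed here across the cells of mouse pancreatic islets. The set held 61 of the 32285 genes in the count tables: every gene whose symbol is that of a collagen chain or a laminin subunit, with the linkers Nid1, Nid2, Hspg2 and Agrn and the matrix glycoproteins Fn1 and Sparc. The rule reads symbols only and no measured value. One library came from islets of DIO mice (the name in the labels) given 10 mg/kg of an agent labelled CDS for 2 weeks, and the other from DIO mice given saline for 2 weeks. The labels do not expand CDS or DIO, do not say whether CDS is the alpha2A receptor antagonist of the series title, and state no strain, sex, age or number of mice for either group. In both groups collagenase V was passed through the pancreatic duct, islets were hand picked, and single cells were sequenced from the 3′ end of their RNA by the 10x droplet method.

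In islets, endothelial cells and the pericytes around them lay down a vascular basement membrane that beta cells touch on their capillary side. Its core is a network of type IV collagen, built from chains wound around each other, and a network of laminins, each made of 1 alpha, 1 beta and 1 gamma subunit. Nidogens and the heparan sulfate proteoglycan perlecan link the pair of networks, while fibrillar collagens of types I, III and V are products of fibroblasts. Mouse beta cells are known for making little basement membrane of their own.

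The CDS library held 7268 barcodes and 141191447 UMIs (unique molecular identifiers, 1 per captured RNA molecule), and the saline library 12453 barcodes and 124343325 UMIs. After filters and doublet removal 6155 CDS cells with a median of 19051 UMIs and 10941 saline cells with a median of 9776 UMIs remained, and the libraries shared 25 cell barcodes. The label "islet b cell" covers only part of these cells, so cells were gated by marker UMIs that include none of the 61 genes, and each class carries the name of its gate. There were 39 CDS and 95 saline stromal cells, 246 and 338 endothelial cells, 40 and 42 ductal cells, 3715 and 4961 beta cells, 932 and 814 alpha cells, and 338 and 421 delta cells. Median cells had 11 of 12 endothelial markers in CDS and 10 in saline, 4.5 and 5 of 8 ductal markers, and 4 of 5 further beta cell markers in both libraries. A lymphoid gate (57 CDS and 2663 saline cells) and a myeloid gate (133 and 137 cells) show how many UMIs of a gene other cells pick up in their droplets. With a single library for CDS and a single one for saline, differences could not be held against a spread between mice, and every 95% interval covers counting error only.

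The main network chains of the basement membrane, Col4a1 (the alpha 1 chain of type IV collagen, chromosome 8, 11198423 to 11312826, minus strand, mm10) and Col4a2 (the alpha 2 chain, chromosome 8, 11312805 to 11449287, plus strand), face away from each other from starts 21 bases apart. Their promoter windows, which run from 250 bases before to 50 bases after the start, overlap by 78 bases. They are shown because the balance of this pair differed between cell classes. Col6a6, a chain of the type VI collagen family, is shown because it was the leading matrix gene of beta cells. Col1a2 and Col3a1, fibrillar chains of types I and III, are shown because they were lower together in CDS stromal cells. The sequences are RefSeq promoters of build GRCm38.p6, read 5′ to 3′ on the gene's strand, and capitals mark CCAAT boxes, the GGGCGG letters known from Sp1 sites and the TATAAA box, on either strand.
Col4a1, chr8:11312777-11313076, minus strand: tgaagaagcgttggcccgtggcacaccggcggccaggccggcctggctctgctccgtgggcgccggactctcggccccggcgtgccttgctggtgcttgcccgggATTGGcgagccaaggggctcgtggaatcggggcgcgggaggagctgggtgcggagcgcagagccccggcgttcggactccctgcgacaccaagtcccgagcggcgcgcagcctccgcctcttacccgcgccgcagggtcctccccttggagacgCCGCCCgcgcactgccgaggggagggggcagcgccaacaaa
Col4a2, chr8:11312555-11312854, plus strand: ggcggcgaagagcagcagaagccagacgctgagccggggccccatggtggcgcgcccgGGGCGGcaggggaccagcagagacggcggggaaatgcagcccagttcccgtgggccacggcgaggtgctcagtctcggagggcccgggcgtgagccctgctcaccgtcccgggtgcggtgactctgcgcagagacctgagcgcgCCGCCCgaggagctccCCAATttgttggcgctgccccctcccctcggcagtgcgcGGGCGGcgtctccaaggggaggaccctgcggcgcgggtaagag
Col6a6, chr9:105828036-105828335, minus strand: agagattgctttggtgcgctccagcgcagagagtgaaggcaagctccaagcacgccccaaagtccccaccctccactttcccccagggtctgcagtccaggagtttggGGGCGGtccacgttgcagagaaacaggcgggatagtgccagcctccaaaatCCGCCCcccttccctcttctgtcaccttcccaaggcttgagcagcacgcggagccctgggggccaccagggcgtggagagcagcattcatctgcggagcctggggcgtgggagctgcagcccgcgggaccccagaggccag
Col1a2, chr6:4505368-4505667, plus strand: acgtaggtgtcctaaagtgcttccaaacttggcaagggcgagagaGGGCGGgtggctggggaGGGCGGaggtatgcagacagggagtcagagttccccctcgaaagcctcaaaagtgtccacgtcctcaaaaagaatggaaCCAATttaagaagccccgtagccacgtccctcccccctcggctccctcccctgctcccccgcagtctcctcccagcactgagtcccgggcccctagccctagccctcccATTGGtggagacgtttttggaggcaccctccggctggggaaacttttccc
Col3a1, chr1:45311288-45311587, plus strand: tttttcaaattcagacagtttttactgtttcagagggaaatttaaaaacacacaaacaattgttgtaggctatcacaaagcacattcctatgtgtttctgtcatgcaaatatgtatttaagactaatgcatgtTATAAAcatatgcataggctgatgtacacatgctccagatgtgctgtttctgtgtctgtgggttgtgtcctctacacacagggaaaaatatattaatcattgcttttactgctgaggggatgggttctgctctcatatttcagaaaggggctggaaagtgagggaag
Of 49 promoter windows found for 44 of the 61 genes, 61.2% held GGGCGG on either strand, against 35.7% of all 32851 windows of that length. CCAAT was in 30.6% of the 49 windows and 37.4% of all windows, and TATAAA in 10.2% and 13.6%. These matches describe the letters only. Within each window shown no marked motif overlaps another. The CCGCCC marked for Col4a1 and the last GGGCGG marked for Col4a2 are the same site, in the bases that both windows share. No binding was measured.

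Of the 6 gated classes, endothelial cells held the largest share of matrix UMIs. It was 44.3% of the 25768 UMIs of the 61 genes in kept CDS cells and 34.4% of 45485 in saline cells. Beta cells, far more numerous, held 24.7% in CDS and 20.0% in saline, and stromal cells 8.01% and 20.3%. Cells that no gate took held 6.61% and 11.6%, and cells with mixed hormone and other markers 4.07% and 3.97%. Col2a1, the cartilage collagen, had 0 UMIs in kept CDS cells and 2 in saline cells.

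Within a class, UMIs were summed over cells and given as CPM (UMIs per 1000000 of the class, scaled between libraries with TMM factors). A 3′ UMI count is not divided by transcript length, and levels of different genes are set side by side on that scale only. The summed level of the 61 genes was highest in stromal cells, at 6611 CPM in CDS and 11417 CPM in saline, and next in endothelial cells, at 6045 and 7167 CPM. Ductal cells had 804 and 1326 CPM. Alpha cells had 161 and 197 CPM, delta cells 112 and 161 CPM, and beta cells 70.8 and 102 CPM. Lymphoid cells had 115 and 153 CPM and myeloid cells 73.5 and 134 CPM, so on this scale the beta cell sum was below that of white blood cells. The scale counts insulin RNA, and Ins1 and Ins2 made up a median of 39.9% of UMIs in CDS and 34.4% in saline beta cells. This lowers the CPM of every other gene there. In saline lymphoid cells Lamb3 held 438 and Lamc1 282 of the 1228 matrix UMIs, so that sum is not background alone. The order of the 6 classes was the same in both libraries, and the stromal and endothelial sums stood closer in CDS.

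**Figure D1:**
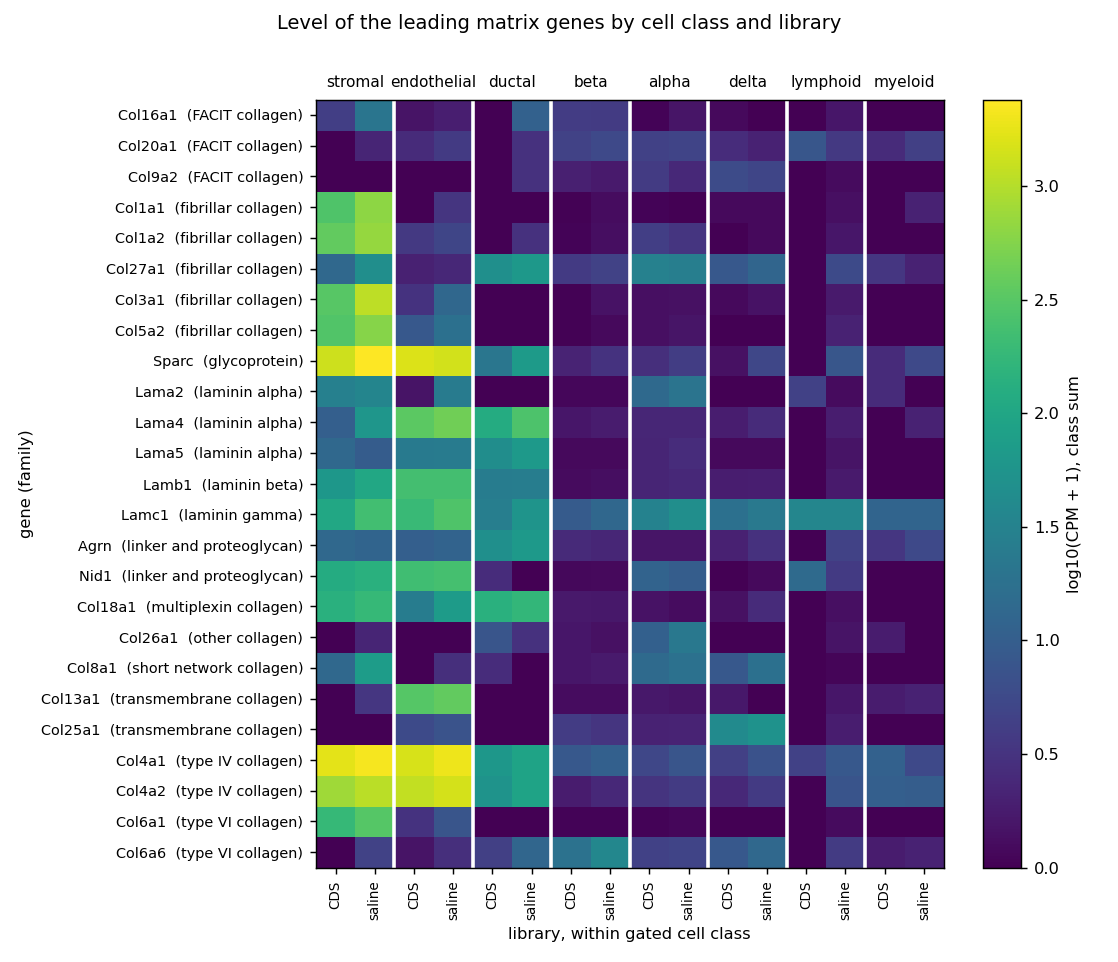
Level of the leading matrix genes (rows, with their family) in each gated cell class (column pairs, CDS left of saline), as log10(CPM + 1) of the class sum, 1 library per group. Type IV collagen and Sparc are brightest in stromal and endothelial cells and fibrillar chains of types I, III and V in stromal cells. Col27a1 is brightest in ductal cells, Col13a1 in endothelial cells, Col6a6 in beta cells and Col25a1 in delta cells.

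In every one of the 6 classes the summed level was lower in CDS. The ratio CDS over saline was 0.579 in stromal cells (95% interval 0.552 to 0.607), 0.606 in ductal cells (0.537 to 0.683) and 0.843 in endothelial cells (0.823 to 0.864). It was 0.696 in beta cells (0.674 to 0.719), 0.696 in delta cells (0.621 to 0.780) and 0.818 in alpha cells (0.762 to 0.879). The median ratio of all genes was lower the longer the gene span. In endothelial cells the shortest of 5 equal bins of genes by span had a median log2 ratio of 0.31 and the longest bin a median of -0.40, and in ductal cells these medians were 0.49 and -0.66. The matrix genes compared are long, with a median span of 78.0 kb in stromal, 109 kb in endothelial and 114 kb in beta cells, and none lay in the shortest bin. With each gene set against genes of like span, the ratio of the sums was 0.996 in endothelial, 0.969 in alpha, 0.872 in beta, 0.867 in delta and 0.816 in ductal cells, and 0.636 in stromal cells. The stromal difference was thus nearly as large after this adjustment and the endothelial one was not seen. The endothelial interval, 0.972 to 1.02, and the alpha interval, 0.902 to 1.04, held 1.

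**Figure D2:**
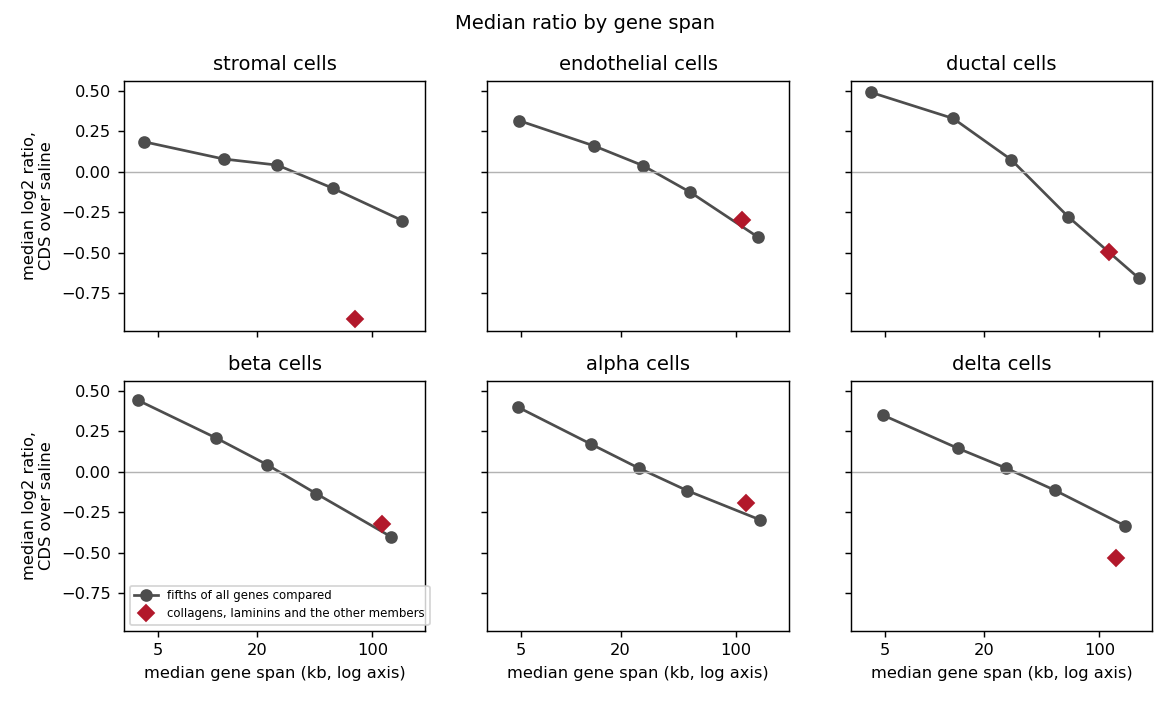
Median log2 ratio CDS over saline (vertical axis) against median gene span in kb (horizontal log axis) for 5 equal bins of all genes compared in each gated class (grey circles) and for the matrix genes compared there (red diamonds). Medians of all genes fall with span in all 6 classes, and the matrix genes lie near that line except in stromal cells, at -0.91, and delta cells, at -0.53.

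A gene was compared in a class if it had at least 50 UMIs there over both libraries. It was called higher or lower in CDS at a ratio of at least 1.5 or at most 0.667 with an interval that excluded 1. In stromal cells 21 of the 61 genes could be compared, and 14 were called lower and 1 higher in CDS, while 15.6% of all 4304 genes compared were called lower and 11.2% higher. Their median log2 ratio was -0.91, beside -0.01 for all genes. Of the 14 lower genes 6 were fibrillar chains. Col3a1, the chain of type III collagen, had 98 UMIs and 314 CPM in 39 CDS stromal cells and 883 UMIs and 1093 CPM in 95 saline stromal cells, a ratio of 0.287 (0.231 to 0.354). Col1a1, the alpha 1 chain of type I collagen, had 282 CPM in CDS and 633 CPM in saline, and Col1a2 372 and 698 CPM. The type V chains Col5a1 and Col5a2, which set the width of type I fibrils, had 70.5 and 288 CPM in CDS and 187 and 577 CPM in saline. The 11 fibrillar chains together had a ratio of 0.412 (0.372 to 0.456), lower than the 0.782 (0.722 to 0.847) of the 6 type IV chains, whose intervals do not meet.

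The type I and III values rested on few cells. In the CDS library 1 stromal cell held 84.1% of Col1a1, 68.1% of Col1a2, 61.2% of Col3a1 and 27.6% of all matrix UMIs of the class, whereas the richest saline cell for each of these genes held 13.9%, 11.9% and 11.3%. A UMI of Col3a1 was found in 8 of 39 CDS cells (20.5%, 9.30 to 36.5%) and 52 of 95 saline cells (54.7%, 44.2 to 65.0%), and a UMI of Col1a1 in 12.8% and 47.4%. In cells thinned to 2000 UMIs, the Col3a1 shares were 8.82% and 45.2%. Without its cell richest in these 3 genes, Col1a1 had 47.8 CPM in CDS and 580 CPM in saline. Without the cell of each library richest in each gene, 17 genes were called lower. Without the 1 cell of each library richest in all matrix UMIs, the ratio of the sums was 0.467, a larger difference than with it.

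Fn1, fibronectin, had 18 UMIs in CDS stromal cells and 212 in saline ones (57.7 and 262 CPM, ratio 0.220, 0.128 to 0.356). Sparc, a collagen-binding glycoprotein of stromal and endothelial cells, had 417 and 1944 UMIs, or 1336 and 2406 CPM, a ratio of 0.555 (0.498 to 0.617). The lowest ratios were those of Lama4, a laminin alpha chain of vessels, with 3 and 47 UMIs (0.165, 0.0329 to 0.513), and Col8a1, a short network collagen, with 4 and 59 UMIs (0.175, 0.0463 to 0.473). Col6a1, a chain of the microfibril-forming type VI collagen, had 183 and 312 CPM. Among the abundant genes of the whole gate only the main type IV chains were not called. Col4a1 had 1733 and 2180 CPM (ratio 0.795) and Col4a2 791 and 1081 CPM (0.732). The ratio of the 6 type IV chains together, 0.782 (0.722 to 0.847), was still below 1. The 1 gene called higher was Col12a1, a collagen that sits on fibrils, with 23 UMIs in CDS and 31 in saline cells (ratio 1.92, 1.07 to 3.40). It was also called without the richest cells.

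Levels of the stromal markers differed between the libraries in the stromal gate. Of the 8 pericyte and smooth muscle markers 3 were called higher in CDS and none lower, with a summed level of 2111 CPM in CDS and 1348 CPM in saline stromal cells. Cspg4, Abcc9 and Des of that list had ratios below 1, at 0.719, 0.841 and 0.897. Of the 7 fibroblast markers 2 were called lower and none higher, with 980 and 1596 CPM, and Pi16 was at 0 in both libraries and Mfap4 in CDS. Rgs5, a pericyte marker, had 743 and 280 CPM and Dcn, a fibroblast proteoglycan, 737 and 1249 CPM. In the 31 CDS and 68 saline cells that showed mainly pericyte markers, the summed matrix level was 7513 CPM and 9405 CPM, a ratio of 0.799 in plain CPM (0.754 to 0.846). With TMM factors of these cells it was 0.780, and 6 matrix genes were called lower. Of all genes there 791 were called in either direction. The share called lower is not given, so the 6 are not set against a background. The CDS cell rich in type I and III collagen lay in this subset, where Col1a1 had a plain ratio of 1.19 (0.890 to 1.59), Col1a2 1.03 (0.792 to 1.33) and Col3a1 0.427 (0.326 to 0.552). Without the cell of each library richest in all matrix UMIs the summed ratio was 0.579 in plain CPM (0.540 to 0.621). Col1a1 then had 0 UMIs in 30 CDS cells and 109 UMIs in 67 saline cells. Without the cell richest in each gene 12 matrix genes were called lower, and 797 of all genes were called in either direction. The share of all genes called lower is not given here either, so the 12 have no background. Col12a1, with 23 and 20 UMIs, had too few to be compared there, at a plain ratio of 2.69 (1.41 to 5.17). With every pericyte-marker cell included, Col4a1 had a ratio of 1.01 (0.906 to 1.13) and Sparc 0.633 (0.550 to 0.726). In the 8 CDS and 27 saline cells with mainly fibroblast markers the summed ratio was 0.331 (0.301 to 0.363). Type IV chains were lower in CDS there too, with plain ratios of 0.351 (0.274 to 0.443) for Col4a1 and 0.380 (0.262 to 0.536) for Col4a2. Even among the pericyte-marker cells Dcn was at 350 CPM in CDS and 1412 CPM in saline, so these subsets are not pure. In the fibroblast-marker cells Dcn went the other way, at 1510 CPM in CDS and 1002.5 CPM in saline (ratio 1.51, 1.24 to 1.83). The summed level of the 8 acinar markers in the stromal gate was 692 CPM in CDS and 176 CPM in saline. Within the pericyte-marker cells Rgs5 was also higher in CDS, at 1061 CPM beside 433 CPM in saline. Marker levels here cannot tell a different mixture of cells from different levels within cells. The part of either in the stromal differences was not tested.

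**Figure D3:**
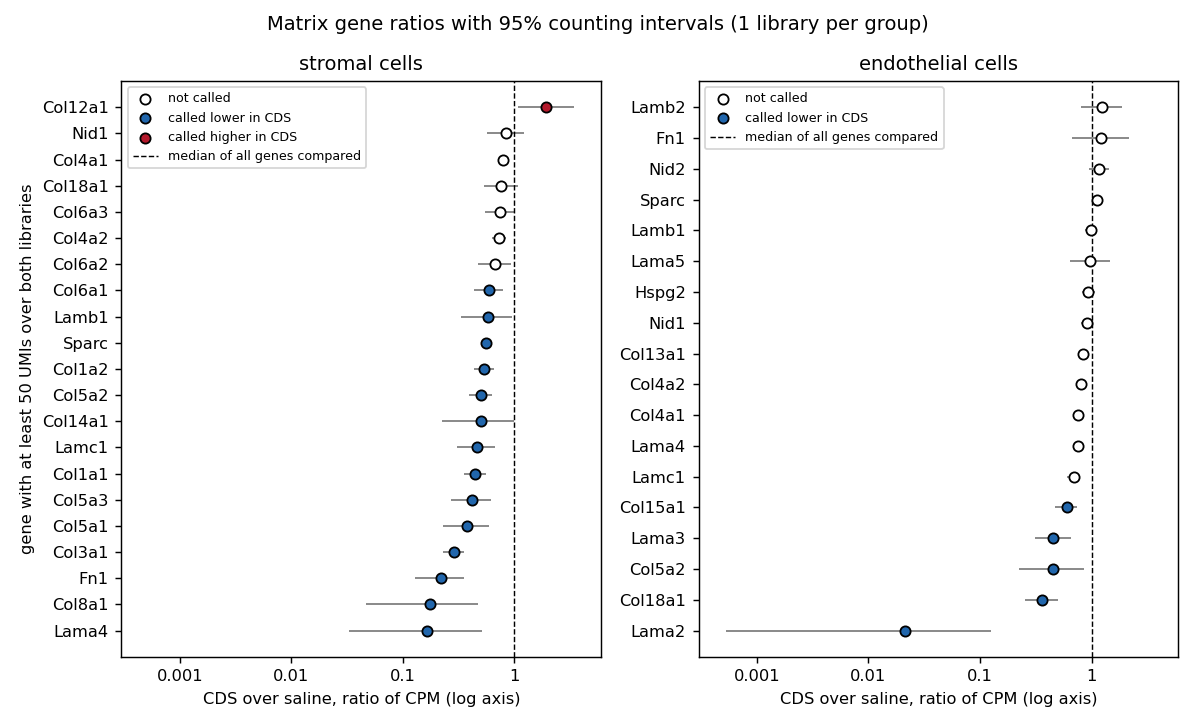
Ratio of CPM, CDS over saline (log axis), with 95% counting intervals for each matrix gene with at least 50 UMIs in stromal (left) and endothelial cells (right), 1 library per group. Blue points are called lower in CDS, the red point is called higher, open points are not called, and the dashed line is the median of all genes. In stromal cells 14 of 21 genes are called lower and in endothelial cells 5 of 18.

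Genes that build or modify the matrix were called lower more often than higher in CDS stromal cells. The shares of all genes there were 15.6% lower and 11.2% higher. Of 18 collagen processing genes compared, 9 were called lower and none higher. They included Serpinh1, the collagen chaperone of the endoplasmic reticulum (298 CPM in CDS and 645 CPM in saline), and the cross-linking enzymes Lox, Loxl1 and Loxl2, with ratios of 0.490, 0.412 and 0.252. Ppib, a prolyl isomerase of general use, had 480 and 434 CPM and was not called. Of 19 other matrix genes 13 were lower and 1 higher: Tnc, tenascin C, had 256 and 973 CPM and Bgn, biglycan, 308 and 620 CPM, while Thbs1, thrombospondin 1, had a ratio of 1.75. Timp1, an inhibitor of matrix metalloproteinases, had 71 UMIs in CDS and 2297 in saline stromal cells (ratio 0.0800, 0.0622 to 0.101). Of 13 proteases and inhibitors 2 were called higher, among them Timp3 with a ratio of 2.22, a share near that of all genes, and 5 were lower. Adamts1, a protease that cleaves proteoglycans, had 682 and 489 CPM and was not called. Of 12 matrix receptors 5 were lower, while the integrin Itgb1 had 464 and 540 CPM and the syndecan Sdc4 356 and 292 CPM, neither of them called.

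Endothelial cells had the basement membrane genes at high levels, and their most abundant matrix genes were not called. Of 18 genes compared, 5 were called lower and none higher in CDS, beside 10.6% and 6.94% of all 8243 genes, and their median log2 ratio was -0.29. Sparc led in CDS with 1580 CPM and had 1421 CPM in saline, a ratio of 1.11 (1.06 to 1.17). Col4a1 had 1486 and 1966 CPM (ratio 0.756, 0.721 to 0.793) and Col4a2 1177 and 1477 CPM (0.797, 0.755 to 0.841), and between 96.2% and 97.6% of the cells of either library had a UMI of each chain. These type IV ratios were below 1 beyond counting error but short of the call limit.

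The leading endothelial laminin genes were Lama4, Lamb1 and Lamc1, the alpha, beta and gamma chains of a laminin known from vessel walls. Lama4 had 333 and 445 CPM, Lamb1 231 and 234 CPM and Lamc1 192 and 279 CPM. Lama5, another vascular alpha chain, had 45 and 54 UMIs beside 630 and 972 UMIs of Lama4, so Lama4 made up 93.3% of the UMIs of both chains in CDS (91.2 to 95.1%) and 94.7% in saline (93.2 to 96.0%). Nid1, the nidogen that joins laminin to type IV collagen, had 222 and 243 CPM and Hspg2, perlecan, 198 and 213 CPM. Their ratios, 0.911 (0.7997 to 1.04) and 0.933 (0.812 to 1.07), had intervals that held 1. Col13a1, a transmembrane collagen, had 305 and 366 CPM, and endothelial cells were where it was highest.

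The 5 endothelial genes called lower were of low or middle level. Col15a1, a proteoglycan collagen of vessel basement membranes, had 120 and 233 UMIs (ratio 0.596, 0.474 to 0.746), and Col18a1, the precursor of endostatin, 48 and 154 UMIs (0.361, 0.255 to 0.502). Lama3, an alpha chain known from epithelia, had 43 and 110 UMIs (0.452) and Col5a2 14 and 36 UMIs (0.450). Lama2 had 1 UMI in CDS and 54 in saline cells (ratio 0.0214, 0.000533 to 0.125), and 1 saline cell held at least 50% of the 54. It was also called lower without the richest cell of each library. Among fibroblast markers in the endothelial gate, 1 of 7 was called lower and none higher, and their summed level was 9.53 CPM in CDS and 54.9 CPM in saline cells. Dpt and Mfap4 were at 0 in both libraries, Pdgfra and Lum in CDS and Clec3b in saline. Of the 8 pericyte and smooth muscle markers 3 were called lower there, with 355 and 432 CPM. The summed level of the 10 lymphoid markers was 2.12 CPM in CDS and 476 CPM in saline endothelial cells. The part of these other cell types in the lower genes was not tested. After adjustment for gene span 2 of the 5 genes, Col18a1 and Lama2, were still called lower.

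Related genes of endothelial cells are set beside 10.6% called lower and 6.94% called higher among all genes. P4hb, a subunit of the collagen prolyl hydroxylase, had 313 and 252 CPM and Serpinh1 236 and 199 CPM, and 1 of 16 collagen processing genes was called lower, a share near that of all genes. Of 14 matrix receptors 4 were called lower, with 776 and 732 CPM for Itgb1 and 331 and 302 CPM for the integrin Itgav, neither of them called. Of 15 proteases and inhibitors 3 were lower, with 846 and 949 CPM for Timp3, which was not called. Thbs1 was the highest gene of the other matrix list, with 2456 and 2582 CPM, and Ecm1, a secreted glycoprotein, had 312 and 354 CPM. In that list 7 of 16 genes were lower and 1 higher, which was the clotting protein gene Vwf at a ratio of 2.82.

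Ductal cells, the epithelium of the pancreatic ducts, had a lower summed matrix level than stromal and endothelial cells, with Lama4 and Col18a1 among the leading genes. Of 8 genes compared, 2 were called lower and none higher in CDS, beside 17.5% and 14.7% of all 3968 genes, and the 40 and 42 cells give wide intervals. Lama4 had 71 and 135 UMIs, or 121 and 273 CPM (ratio 0.443, 0.328 to 0.595), and Col4a2 31 and 45 UMIs (0.580, 0.355 to 0.937). Col18a1 had 138 and 170 CPM, Col4a1 61.3 and 91.0 CPM, and Agrn, the proteoglycan agrin, 47.7 and 64.7 CPM. Col27a1, a short fibrillar chain, had 47.7 and 62.7 CPM and Lama5 44.3 and 64.7 CPM. Neither of the lower calls held after adjustment for gene span. In the ductal gate the 8 acinar markers summed to 1250 CPM in CDS and 637 CPM in saline, with 3 called higher. The 8 ductal markers summed to 2077 and 2622 CPM, with 3 called lower, and the 10 lymphoid markers to 6.81 and 66.7 CPM. Their part in the lower genes was not tested.

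Beta cells had low levels of most matrix genes, and the leading one was Col6a6. It had 1626 UMIs and 18.1 CPM in CDS beta cells and 3213 UMIs and 35.9 CPM in saline beta cells, and beta cells held 90.5% of its UMIs in kept CDS cells and 88.9% in saline cells. A UMI was found in 29.4% of CDS beta cells (27.9 to 30.9%) and 40.3% of saline ones (39.0 to 41.7%). Among lymphoid cells it was in 0 of 57 in CDS, which allows a share of up to 5.26%, and 0.864% in saline, at median depths of 3198 and 2044 UMIs beside 27249 and 15704 in beta cells. Thinned to 2000 UMIs the beta cell shares were 3.0% in CDS and 7.87% in saline. Col6a6 was lower in CDS by both measures, with a ratio of CPM of 0.503 (0.474 to 0.534) and a log2 ratio of -0.58 after adjustment for gene span. In beta cells with no endothelial, stromal or Schwann marker UMI the ratio was 0.479 (0.442 to 0.518).

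Of 27 genes compared in beta cells, 6 were called lower and none higher, beside 10.6% and 12.9% of all 15336 genes, with a median log2 ratio of -0.32. Among the next levels were those of Lamc1 with 8.36 CPM in CDS and 12.4 CPM in saline and Col4a1 with 7.42 and 9.96 CPM. Col20a1, a fibril-associated chain, had 3.60 and 4.51 CPM, Col27a1 2.71 and 3.65 CPM, Col16a1 2.97 and 2.90 CPM and Col25a1, a transmembrane collagen, 2.96 and 2.28 CPM. None of these 6 was called. Beta cells held 94.04% of the Col16a1 UMIs in CDS and 83.3% in saline, but its level was not highest there in saline, with 16 UMIs and 19.8 CPM in stromal cells and 5 UMIs and 10.1 CPM in ductal cells.

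**Figure D4:**
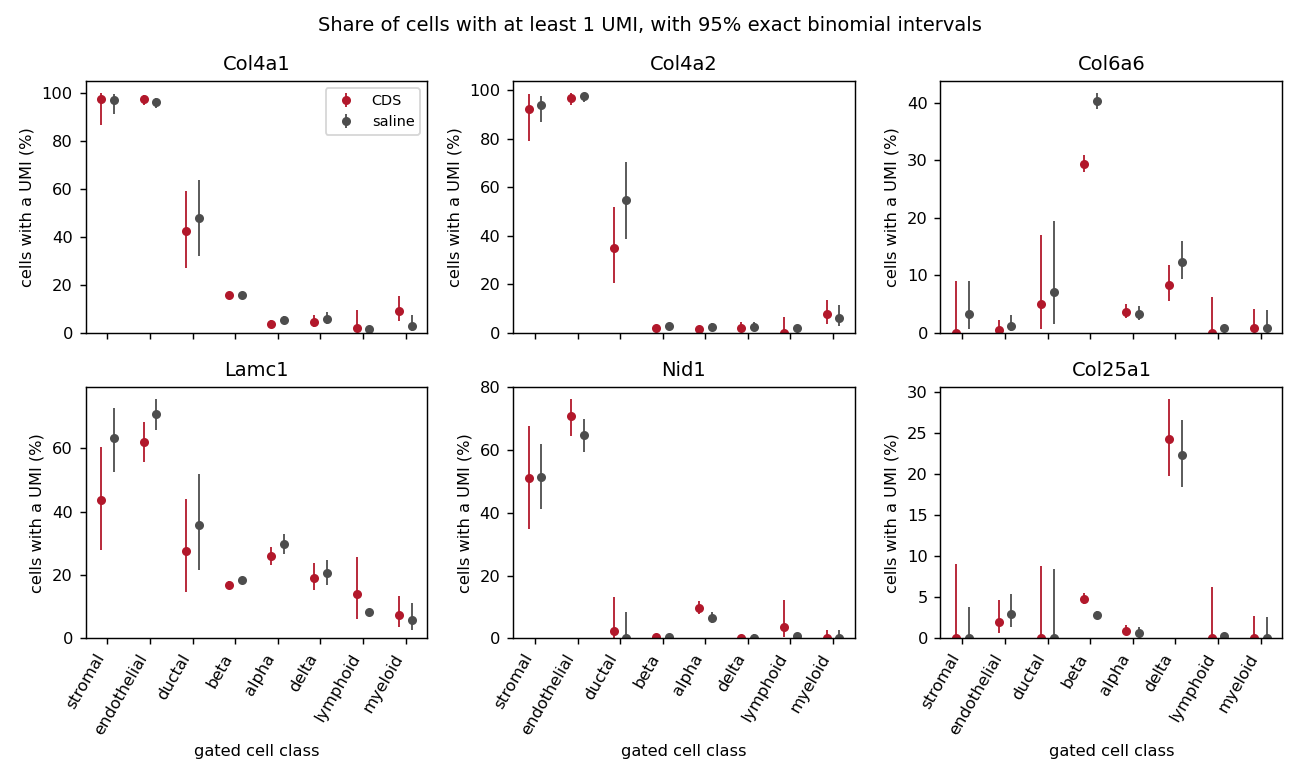
Percent of cells with at least 1 UMI (vertical axes, with 95% exact binomial intervals) for 6 matrix genes in each gated class, CDS in red left of saline in grey, in cells of unequal depth. Col4a1 and Col4a2 are in nearly all endothelial and stromal cells, Col6a6 is mostly in beta cells, Nid1 in stromal, endothelial and alpha cells, Col25a1 in delta cells, and Lamc1 also in lymphoid cells.

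The genes called lower in beta cells besides Col6a6 had few UMIs per cell. The summed level of lymphoid markers in the beta gate was 5.78 CPM in CDS and 23.4 CPM in saline. They were Col14a1 (76 UMIs in CDS and 147 in saline), Sparc (106 and 187), Col4a2 (75 and 131), Lamb3 (23 and 60) and, outside the rule for named genes, Col4a5 (29 and 47). Sparc was found in 2.56% of CDS and 3.49% of saline beta cells, and in 0 of 57 and 1.54% of lymphoid cells. Col4a2 was found in 1.99% and 2.60% of beta cells and 1.80% of saline lymphoid cells, and in 7.52% of CDS and 5.84% of saline myeloid cells. These shares are low and come from cells of unequal depth. The part of RNA from other cells in the lower values of Sparc and Col4a2 was not tested. These values are therefore not taken as a measure of beta cell RNA. Lamb3, a beta chain known from epithelial laminin, had 438 of its 588 UMIs in saline lymphoid cells, where 14.1% of cells had one, and its gene overlaps Hsd11b1 and G0s2 on the other strand. Whether counting used strand is not given in the sources used here.

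Col4a1 in beta cells stood apart in its ratio to its partner. Beta cells had 668 UMIs of Col4a1 and 75 of Col4a2 in CDS, or 8.91 to 1, and 892 and 131 in saline, or 6.81 to 1. The ratio was 1.26 and 1.33 in endothelial cells, 2.19 and 2.02 in stromal cells and 1.15 in saline lymphoid cells. Col4a1 made up 89.9% of the pair in CDS beta cells (87.5 to 92.0%) and 87.2% in saline (85.0 to 89.2%), with intervals apart from those of endothelial and stromal cells in both libraries. A UMI of Col4a1 was in 15.8% and 15.5% of beta cells and in 1.75% and 1.61% of lymphoid cells, but in myeloid cells the shares were 9.02% and 2.92%. Thinned to 2000 UMIs, beta cells had 1.35% and 2.04% and myeloid cells 1.57% and 1.504%. The myeloid gate held 133 and 137 cells, so its thinned shares rest on very few cells with a UMI. At equal depth the share of cells therefore cannot tell beta cells from myeloid cells. The chain ratio set beta cells apart from endothelial, stromal and saline lymphoid cells. The annotated starts of this pair overlap on opposite strands.

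**Figure D5:**
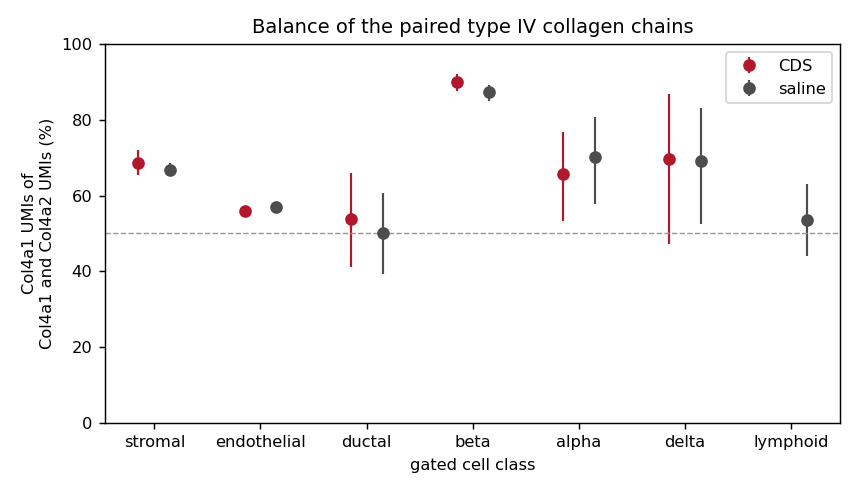
Col4a1 UMIs as a percent of Col4a1 and Col4a2 UMIs (vertical axis, with 95% exact binomial intervals) by gated class, CDS in red left of saline in grey; the dashed line marks equal counts, and CDS lymphoid cells had too few UMIs. Beta cells stand at 89.9% and 87.2%, endothelial cells at 55.8% and 57.1%.

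Lamc1 was not particular to beta cells. A UMI was in 16.8% of CDS and 18.4% of saline beta cells, in 26.1% and 29.9% of alpha cells, and in 14.04% and 8.26% of the much shallower lymphoid cells.

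In alpha cells the leading matrix genes were Lamc1 and Col27a1. Of 11 genes compared, 2 were called lower and none higher, beside 4.49% and 8.82% of all 11808 genes, with a median log2 ratio of -0.19. Lamc1 had the highest level, with 30.4 CPM in CDS and 45.2 CPM in saline, followed by Col27a1 with 30.1 and 27.2 CPM. Lama2, the alpha chain of the laminin of muscle and nerve, had 13.2 and 19.04 CPM. Alpha cells held 68.1% of its UMIs in CDS and 50.8% in saline, while delta cells had none in either library. Its level was higher in stromal cells, with 9 of 312270 UMIs in CDS and 27 of 807615 in saline. The same held for saline endothelial cells, with 54 of 2128197 UMIs. Col8a1 had 13.95 and 17.04 CPM, beside 7.42 and 16.7 CPM in delta cells, and Nid1 11.1 and 8.88 CPM. Nid1 was in 9.76% and 6.63% of alpha cells and in 0.485% and 0.363% of beta cells. Col26a1, a gene of type XXVI collagen, had 105 and 149 UMIs, or 9.83 and 21.3 CPM, and was called lower (ratio 0.461, 0.356 to 0.596), also after adjustment for gene span. It was found in 8.58% of CDS and 13.5% of saline alpha cells and in no delta cell. Col4a1, with 46 and 47 UMIs (0.640, 0.417 to 0.983), was the other gene called lower, and its chain ratio of 1.92 and 2.35 had an interval that met that of stromal cells. All 8 acinar markers were called higher in the alpha gate, with a summed level of 660 CPM in CDS and 253 CPM in saline, and the 10 lymphoid markers summed to 1.97 and 27.3 CPM. Their part in the lower genes was not tested.

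Delta cells were marked by Col25a1. It had 191 and 230 UMIs, or 40.5 CPM in CDS and 51.9 CPM in saline, and was in 24.3% (19.8 to 29.2%) and 22.3% (18.4 to 26.6%) of delta cells, against 4.82% and 2.80% of beta cells, 0.858% and 0.614% of alpha cells and 0.263% of saline lymphoid cells. Of 6 genes compared, 2 were called lower and none higher, beside 5% and 6.65% of all 10715 genes, with a median log2 ratio of -0.53. Those were Col8a1, with 35 and 74 UMIs (ratio 0.444, 0.288 to 0.673), and Col6a6, with 35 and 57 UMIs (0.577, 0.367 to 0.894). In delta cells with no endothelial, stromal or Schwann marker UMI, Col8a1 had a ratio of 0.479 (0.274 to 0.807). The Col6a6 ratio there was 0.690, with an interval that held 1 (0.378 to 1.23). Lamc1 had 16.5 and 22.4 CPM, Col27a1 7.42 and 11.5 CPM, Col4a1 3.39 and 6.10 CPM and Col9a2, a chain of the fibril-associated type IX collagen, 4.88 and 4.06 CPM. Intervals of these 4 ratios held 1. In the delta gate 5 of 8 acinar markers were called higher, with a summed level of 516 CPM in CDS and 361 CPM in saline, and the 10 lymphoid markers summed to 1.70 and 25.3 CPM. Their part in the lower genes was not tested.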

How the data were processed

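Each library's deposited table holds raw counts of UMIs per gene and barcode. Counts were made by the authors with Cell Ranger 7.1.0 per the file headers, and the build was mm10 per the submitters' processing notes, which also list Cell Ranger 7.1, Seurat 4 and edgeR, the last with no version. What Seurat and edgeR did, and which annotation, intron and strand settings the authors chose, is not given in the sources used here. Per the labels' protocols the 10x chemistry was v3.1 in 1 passage and v2 in another.

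The 61 genes, the lists and the gates were chosen with earlier results of these data known. A barcode was kept from 500 genes and 1000 UMIs upward if mitochondrial UMIs made up no more than 20%, and doublets were called with Scrublet in Scanpy 1.11.5 (expected rate 0.8% per 1000 barcodes), which marked 4.05% of CDS and 5.61% of saline barcodes. Beta cells had at least 10% of UMIs from Ins1 and Ins2, alpha cells 2% from Gcg and delta cells 2% from Sst. Stromal, endothelial and ductal cells had under 0.5% from endocrine markers, at least 3 markers of their own list and a detected share of it above 2 times that of each of the endothelial, stromal, Schwann and ductal lists other than their own, with limits on leukocyte, myeloid and acinar markers. Hormone cells carried no second hormone and under 3 markers of endothelial, stromal or Schwann cells. UMIs were summed per class and library, with TMM factors from edgeR 4.0.16. Levels carry exact Poisson 95% intervals, ratios exact conditional Poisson intervals, and shares exact Clopper-Pearson intervals. A count of 0 allows up to 3 counts. With 1 library per group there was no test and no p-value. Gene spans were read from GENCODE on mm10 for the 32235 of 32285 IDs that it holds, and the span adjustment subtracted a running median. The ratio rule was tested on simulated data. Intervals were computed in SciPy 1.17.1, and DESeq2 1.42.0 on R 4.3.3 gave median-of-ratios factors as an alternative.

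Named genes were, per class, up to 8 with the highest mean CPM among those with at least 20 UMIs, up to 5 called genes with the highest and 5 with the lowest ratio, 2 per related list in endothelial and stromal cells, and the pair Col4a1 and Col4a2. Col2a1, Hspg2, Col4a5 and Nid1 in beta cells, Lama5 in endothelial cells, Lox, Loxl1, Loxl2, Timp3 and Thbs1 in stromal cells, and Vwf in endothelial cells were named after their values were seen. Alternatives covered other filters, doublets kept, gates with 2 or 5 markers, median-of-ratios factors, plain CPM, CPM without hormone, acinar and mitochondrial genes, hormone cells free of other markers, a mean over cells, the span adjustment, minimum UMIs of 20 or 1 and a 2-fold limit. Leaving out the richest cells, the pericyte-marker cells alone, and both together were chosen after seeing the data. Some genes that this rule selects are not reported here.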

Additional observations from a re-analysis of the deposited data

Results flagged for a closer look

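Sparc had ratios on opposite sides of 1 in the classes that make most of it. The ratio CDS over saline was 1.11 in endothelial cells (1.06 to 1.17) and 0.555 in stromal cells (0.498 to 0.617), and on plain CPM it was 1.05 and 0.555. It was also 1.11 in endothelial cells against 0.564 in beta cells (0.440 to 0.719), where few cells had a UMI of it. The part of RNA from other cells in that beta cell value was not tested. After adjustment for gene span the log2 ratios were 0.13 in endothelial, -0.84 in stromal and -0.82 in beta cells. Col25a1 had a ratio of 1.30 in beta cells (1.08 to 1.57) and 0.780 in delta cells (0.640 to 0.949), and on plain CPM 1.03 and 0.722. After adjustment for gene span both log2 ratios were above 0, at 0.95 in beta and 0.11 in delta cells. In cells with no endothelial, stromal or Schwann marker UMI both Col25a1 intervals held 1. The ratios there were 1.21 in beta (0.933 to 1.56) and 0.996 in delta cells (0.770 to 1.29). These differences between classes were not tested, since each group had 1 library.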

How the results depend on the processing

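The summed ratio was below 1 in all 6 classes under every alternative run, but not always beyond counting error. Adjusted for gene span, its interval held 1 in endothelial cells (0.972 to 1.02) and alpha cells (0.902 to 1.04). In stromal cells it was 0.579, against 0.620 as a mean over cells, 0.636 adjusted for gene span, 0.467 without the richest cells and 0.780 in pericyte-marker cells alone. In endothelial cells it was 0.843, against 0.7996 in plain CPM, 0.795 in CPM without hormone, acinar and mitochondrial genes and 0.996 adjusted for span. In ductal cells it was 0.606, against 0.756 with a gate of 2 markers and 0.816 adjusted for span. In beta cells it was 0.696, against 0.550 in plain CPM, 0.613 without hormone, acinar and mitochondrial genes, 0.672 in cells with no endothelial, stromal or Schwann marker UMI and 0.872 adjusted for span. In alpha cells it was 0.818, against 0.969 adjusted for span, and in delta cells 0.696, against 0.808 in cells free of those markers and 0.867 adjusted for span.

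Counts called higher in CDS were 1 in stromal cells, but 0 with a gate of 5 markers, at a 2-fold limit, and in pericyte-marker cells with or without the richest cells. In pericyte-marker cells fewer UMIs left Col12a1 out of the comparison. They were 0 in endothelial cells, but 1 as a mean over cells, and 0 in beta cells, but 1 as a mean over cells and 3 adjusted for span. Counts called lower were 14 in stromal cells and 6 in pericyte-marker cells, or 12 there without the richest cells. For pericyte-marker cells the share of all genes called lower is not given. In endothelial cells 5 were lower, against 2 adjusted for span, 8 with at least 20 UMIs and 14 with at least 1. In ductal cells 2 were lower, against 1 with a gate of 5 markers or a 2-fold limit, 0 adjusted for span, 6 with at least 20 UMIs and 10 with at least 1. In beta cells 6 were lower, against 13 in plain CPM, 11 without hormone, acinar and mitochondrial genes, 2 adjusted for span, 14 with at least 20 UMIs, 16 with at least 1 and 1 at a 2-fold limit. In alpha cells 2 were lower, against 1 with doublets kept, adjusted for span or at a 2-fold limit, and 4 in plain CPM or without hormone, acinar and mitochondrial genes. In delta cells 2 were lower, against 1 in cells free of other markers, adjusted for span or at a 2-fold limit, and 4 with at least 1 UMI. Lower minimum UMIs compare more genes and a 2-fold limit is stricter by construction. Plain CPM and CPM without hormone, acinar and mitochondrial genes rescale every ratio of a class by the same amount. Of all genes in beta cells, 3609 were called in either direction with TMM factors. In plain CPM 5162 were called, and 4036 without hormone, acinar and mitochondrial genes. For the other changes the cause was not tested.

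The other 184 values under alternatives stayed close to those reported. No paired analysis was possible because each group had 1 library and the labels give no replicate numbers. With 1 library per group, spread between mice is unknown, and 39 CDS stromal and 40 CDS ductal cells limit those classes most.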
